A study of Mus musculus with 7 samples.

Results

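Mouse hemoglobin is built from alpha-type and beta-type globin chains, and 7 globin genes are described here in whole noses taken at embryonic day 14.5: Hba-x, Hba-a1 and Hba-a2 of the alpha cluster and Hbb-y, Hbb-bh1, Hbb-bs and Hbb-bt of the beta cluster. They are 7 of the 30323 genes listed in all matrices with a unique symbol. They were chosen by name as the embryonic globins (Hba-x, Hbb-y and Hbb-bh1) and the adult globins (Hba-a1, Hba-a2, Hbb-bs and Hbb-bt), and they were read in each cell with at least 200 genes detected. A cell was called globin-rich where the 7 genes together made at least 20% of its unique molecular identifiers (UMIs, 1 per captured transcript). This held for 292 of 38410 cells, and the other 38118 cells were used to measure globin RNA outside such cells.

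Globin genes are switched during development. The first red cells are made in the yolk sac, enter the blood as large nucleated primitive cells and use embryonic chains, and they lose their nuclei only later, in the circulation. Definitive red cells come from the fetal liver, expel the nucleus before they enter the blood and use adult chains. Both lineages circulate together at mid-gestation, and the blood in a dissected nose holds whichever cells are in its vessels.

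The WT group was CD1 IGS noses in 5 droplet libraries. WT replicates 3 and 4 share 7386 cell barcodes, more than any other pair of libraries, among which the largest overlap was 34. Replicate 3 was therefore left out, and replicates 1, 2, 4 and 5 stand for the WT group (n = 4). The other group was 1 nose of the ProKR2iCre/R26tdTomato line, which joins the allele Prokr2em1(cre)Cfe on a B6;SJL background to the reporter Gt(ROSA)26Sortm14(CAG-tdTomato)Hze, so that Cre made from the Prokr2 gene switches on tdTomato. That nose gave 2 libraries, a sorted and an unsorted data set, and the labels do not say which is which. They are called Prokr2Cre library 1 and library 2 and are given singly, with no test against WT. Both groups were dissociated with papain and collagenase, frozen and thawed before capture. The labels do not state how noses map to WT libraries, so SDs and p-values measure only the spread between these libraries, which may be technical. Cells with at least 200 genes numbered 9164, 11340, 7338 and 5930 in WT replicates 1, 2, 4 and 5, and 3436 and 1202 in Prokr2Cre libraries 1 and 2. Total depth ran from 16773781 to 89800259 UMIs per library.

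In the mm10 build (GRCm38) the alpha genes lie on the plus strand of chromosome 11 in the order Hba-x, Hba-a1, Hba-a2, at chr11:32276400-32297298. The beta genes lie on the minus strand of chromosome 7 at chr7:103812524-103853216, with Hbb-y first in the direction of transcription, then Hbb-bh1, Hbb-bs and Hbb-bt. The 4 promoters below are shown because each belongs to the gene with the most UMIs of its kind (embryonic or adult, alpha or beta) over the WT globin-rich cells. Each is the 200 bases before the RefSeq transcription start (GRCm38.p6), which is not always the end of the gene in the annotation used for the positions above, written 5′ to 3′ on the gene's strand. RefSeq promoters were matched for 6 of the 7 genes. Capitals mark CACCC (the core bound by Krüppel-like factors such as Klf1), CCAAT and TGACC (a core of nuclear receptor elements) on either strand. Overlapping matches run together.
Hba-x, chr11:32276400-32276599, plus strand: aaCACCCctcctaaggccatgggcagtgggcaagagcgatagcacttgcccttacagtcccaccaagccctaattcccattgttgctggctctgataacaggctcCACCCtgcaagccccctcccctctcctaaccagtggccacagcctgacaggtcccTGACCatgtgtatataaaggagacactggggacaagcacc
Hba-a1, chr11:32283472-32283671, plus strand: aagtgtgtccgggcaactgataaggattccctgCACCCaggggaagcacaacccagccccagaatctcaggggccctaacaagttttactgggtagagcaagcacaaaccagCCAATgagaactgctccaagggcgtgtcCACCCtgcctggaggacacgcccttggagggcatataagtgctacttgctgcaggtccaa
Hbb-y, chr7:103853208-103853407, minus strand: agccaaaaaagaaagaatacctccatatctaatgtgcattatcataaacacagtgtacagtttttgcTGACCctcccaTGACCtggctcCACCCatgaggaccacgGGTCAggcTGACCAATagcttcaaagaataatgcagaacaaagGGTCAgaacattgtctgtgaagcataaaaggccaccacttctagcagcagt
Hbb-bs, chr7:103827929-103828128, minus strand: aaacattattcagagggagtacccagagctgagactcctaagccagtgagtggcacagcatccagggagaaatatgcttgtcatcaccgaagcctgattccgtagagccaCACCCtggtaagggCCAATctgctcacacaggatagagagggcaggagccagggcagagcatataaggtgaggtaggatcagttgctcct

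Motifs were counted in the 300 bases from 250 before to 50 after the start. CACCC was found in all 6 matched promoters and in 57.5% of 32851 promoters of the same length. The Hbb-y promoter held 5 matches to TGACC, between 133 and 51 bases upstream of the start, and the 1 match of Hba-x began 40 bases upstream. Hbb-bt held 1 match as well, whereas Hba-a1, Hba-a2 and Hbb-bs held none, against 40.5% of all promoters with at least 1. CCAAT was present in each of the 6 except Hba-x and in 37.4% of all promoters. These matches describe letters only.

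Near-identical copies limit how far single genes can be read. The coding sequences of Hba-a1 and Hba-a2 share 428 of 429 bases, and their first 74 bases after the stop codon are the same. Hbb-bs and Hbb-bt share 443 of 444 coding bases but only 70.7% of the bases after the stop codon, where the 3-prime libraries read. The split between Hba-a1 and Hba-a2 is thus uncertain in these counts. Sums over adult alpha or adult beta genes avoid that split. Whether reads that match both alpha copies were all counted was not tested. The alpha shares and alpha to beta ratios below carry that limit. The embryonic genes are more distant: Hba-x shares 64.9% of coding bases with Hba-a1, and Hbb-y shares 74.3% with Hbb-bs and 76.4% with Hbb-bh1.

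Globin-rich cells were few in every library, and almost all globin RNA was inside them. They numbered 126, 51, 35 and 52 in WT replicates 1, 2, 4 and 5, with 26 in Prokr2Cre library 1 and 2 in library 2. As a share of cells this was 1.37%, 0.450%, 0.477% and 0.877% in the WT libraries, a mean of 0.795% ± 0.433 (SD, n = 4). Among cells with at least 500 genes the mean was 0.254%. In Prokr2Cre libraries 1 and 2 it was 0.757% (95% Clopper-Pearson interval 0.495 to 1.11) and 0.166% (0.0202 to 0.600), and a sort can set such shares. The 7 genes made 74.3% to 94.5% of the summed UMIs of globin-rich cells, and these cells held 94.1% to 99.8% of all globin UMIs of the cells with at least 200 genes. Within single cells the median globin share was 88.1%. Few cells lay near the limit of 20%: 6 cells fell between 15% and 20% and 4 between 20% and 25%.

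Each globin-rich cell used either adult chains alone or a mixture led by embryonic chains, with nothing in between. Adult chains made most of the globin UMIs in 258 cells, called adult-majority here, and embryonic chains in 34, called embryonic-majority. In the adult-majority cells the embryonic share of globin UMIs never passed 0.0581%, and 241 of the 258 held no embryonic UMI. In the embryonic-majority cells it ran from 51.3% to 77.2% with a median of 64.6%. No cell lay between 10% and 50%. Across all adult-majority cells there were 26 embryonic UMIs in total.

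**Figure D1:**
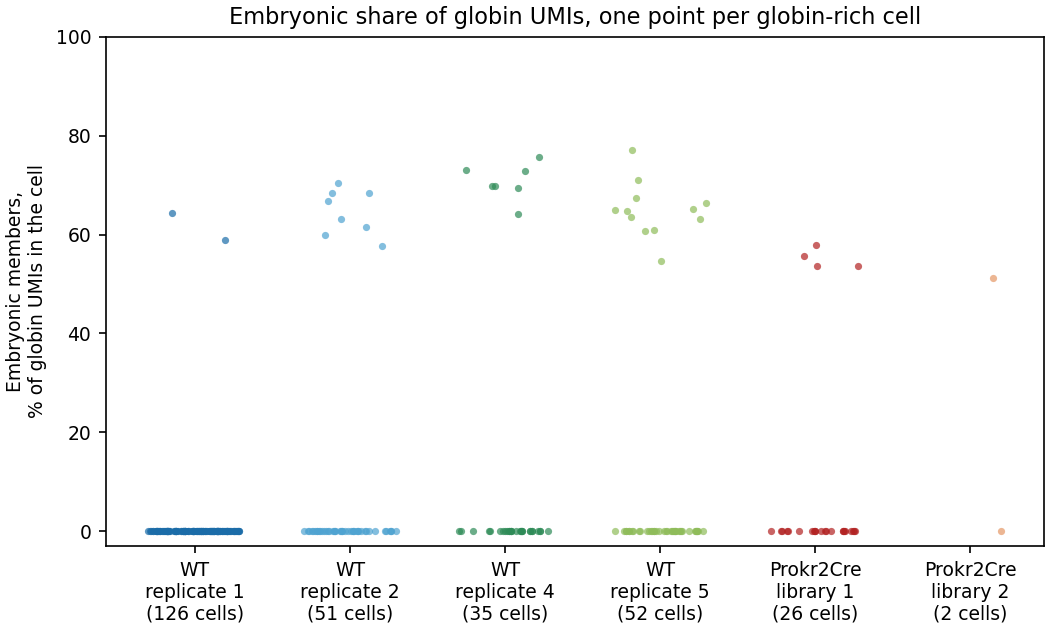
Embryonic share of the globin UMIs (percent, y axis) for each of the 292 globin-rich cells, grouped by library (x axis) and spread sideways for visibility. In each library the points form a group at or near 0 and a group between 51.3% and 77.2%, and no point lies between.

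The ratio of embryonic to adult globin UMIs per cell was 0 in the 241 cells without an embryonic UMI and at most 0.000582 in the remaining adult-majority cells. Embryonic-majority cells had a median ratio of 1.83, with a lowest of 1.05 and a highest of 3.38. By library the medians were 1.62 (2 cells), 1.86 (8 cells), 2.32 (7 cells) and 1.85 (12 cells) in WT replicates 1, 2, 4 and 5. Prokr2Cre library 1 had a median of 1.21 over 4 cells, and the 1 such cell of library 2 had a ratio of 1.05. The Prokr2Cre cells lay between 1.05 and 1.37 and the WT cells between 1.21 and 3.38, so that the ranges overlapped only at the lower end of WT. In beta UMIs alone the groups were not set apart in this way. Embryonic genes made 82.8% and 88.7% of the summed beta UMIs in Prokr2Cre libraries 1 and 2, and 85.9% to 87.5% in WT libraries. Strain, counting software version and sort differ between those groups together with the nose and cannot be told apart.

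The embryonic share of a whole library varied more than that of its embryonic-majority cells. Summed over globin-rich cells, embryonic chains made 0.405%, 6.96%, 17.8% and 8.05% of globin UMIs in WT replicates 1, 2, 4 and 5. The 95% Clopper-Pearson interval of the first was 0.393 to 0.416, for counting error only. The WT mean was 8.29% ± 7.16 (SD, n = 4), and it was 5.14% without replicate 4 and 17.1% among cells with at least 500 genes. Prokr2Cre library 1 had 13.0% and library 2 had 15.8%. Adult-majority cells made 98.4%, 84.3%, 80.0% and 76.9% of the globin-rich cells of WT replicates 1, 2, 4 and 5, a mean of 84.9% ± 9.50 (SD, n = 4), and 22 of 26 in Prokr2Cre library 1. Replicate 1 stood above the other WT libraries in this share, with 2 embryonic-majority cells of 126.

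Hbb-y, the main embryonic beta chain, was the most abundant globin of the embryonic-majority cells in every library. It made 55.3%, 54.9%, 55.9% and 59.1% of their globin UMIs in WT replicates 1, 2, 4 and 5, and 47.7% and 45.8% in Prokr2Cre libraries 1 and 2. The 2 Prokr2Cre values were below all 4 WT values. This did not hold within beta UMIs alone. There the embryonic genes made 82.8% and 88.7% in Prokr2Cre libraries 1 and 2, below and above the WT range of 85.9% to 87.5%. In adult-majority cells Hbb-y had 2, 2, 2 and 6 UMIs in the WT libraries and 4 and 0 in the Prokr2Cre libraries.

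Hbb-bh1, the other embryonic beta-type chain, which is used most in the earliest primitive cells, was scarce. Embryonic-majority cells held 1, 25, 86 and 32 UMIs of it in WT replicates 1, 2, 4 and 5, and 392 and 2 in Prokr2Cre libraries 1 and 2. This was 0.0233% to 0.830% of the embryonic beta UMIs per library, and 24 of the 34 cells held at least 1. A single cell of Prokr2Cre library 1 held 362 of the 392. In the adult-majority cells of each WT library there was no Hbb-bh1 UMI, which allows up to 1.94 CPM (UMIs of a gene per 1000000 UMIs) in replicate 1 and up to 16.9 in replicate 4. Those of Prokr2Cre library 1 held 3 UMIs in 2 of 22 cells (8.28 CPM), and the 1 such cell of library 2 held none.

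Hba-x, the embryonic alpha chain, was present in all 34 embryonic-majority cells but was a minor part of their alpha chains. It made 6.90%, 9.46%, 13.9% and 6.77% of globin UMIs in WT replicates 1, 2, 4 and 5, and 8.55% and 5.43% in Prokr2Cre libraries 1 and 2. WT replicate 4 had the highest share. In adult-majority cells it had between 0 and 3 UMIs per library.

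Embryonic-majority cells thus combined mainly embryonic beta chains with mainly adult alpha chains. Embryonic genes made a median of 86.8% of beta UMIs per cell, with a range of 76.9% to 94.1%, and a median of 24.0% of alpha UMIs, with a range of 2.03% to 49.7%. In each of the 34 cells the embryonic share was higher for beta than for alpha, and the 2 ranges did not overlap. The beta share varied little between WT libraries, at 86.7% ± 0.707 (SD, n = 4) for class sums, while the alpha share varied more, at 26.5% ± 9.39. WT replicate 4 had the highest alpha share, 39.8%, against 18.8%, 26.3% and 21.1% in replicates 1, 2 and 5. Across cells the 2 shares had a Pearson r of 0.29 over 34 cells, and r was 0.45, -0.27 and 0.71 within WT replicates 2 (8 cells), 4 (7 cells) and 5 (12 cells). The cells of a library share its suspension, and these r are given as a description.

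**Figure D2:**
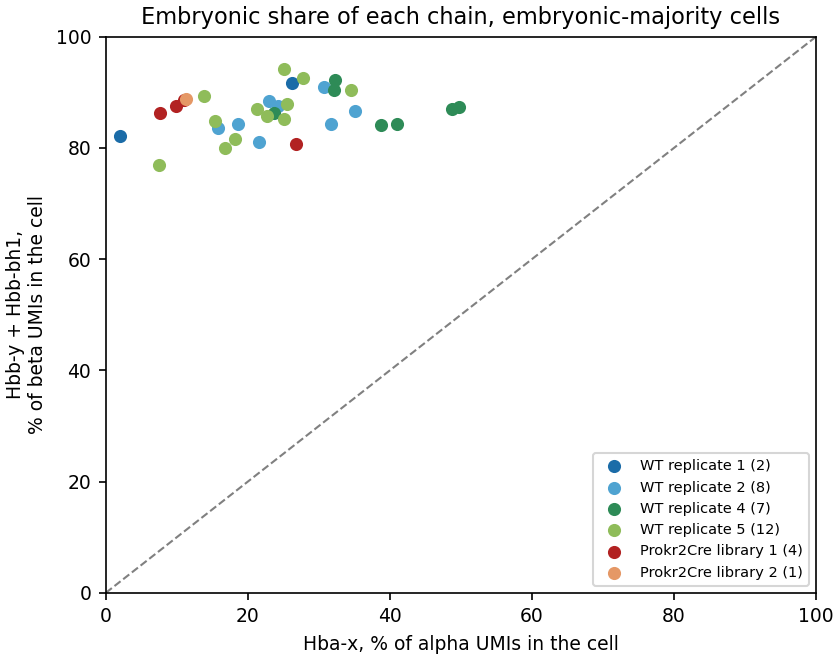
Embryonic share of alpha UMIs (x axis, percent) against embryonic share of beta UMIs (y axis, percent) in the 34 embryonic-majority cells, coloured by library with the number of cells in the key. All cells lie above the dashed line of equal shares, between 76.9% and 94.1% for beta and between 2.03% and 49.7% for alpha.

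Hba-a1 was the main alpha gene in WT cells of both classes. It made 24.0%, 27.2%, 30.1% and 27.5% of the globin UMIs of adult-majority cells in WT replicates 1, 2, 4 and 5, and 29.6%, 25.9%, 20.9% and 24.9% of those of embryonic-majority cells. The ranges of the classes overlapped.

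Hba-a2 was scarce in WT cells and abundant in Prokr2Cre cells. In globin-rich cells it made 1.21%, 2.33%, 1.18% and 1.77% of adult alpha UMIs in WT replicates 1, 2, 4 and 5. In Prokr2Cre libraries 1 and 2 it made 48.5% and 43.7%. Both Prokr2Cre libraries lay above all 4 WT libraries. Within the Prokr2Cre nose the share was 50.9% in adult-majority and 39.1% in embryonic-majority cells of library 1. Since the genes are nearly the same in sequence, the counting of reads to one copy or the other, the strain and the nose cannot be told apart.

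Hbb-bs and Hbb-bt, the adult beta pair, were both abundant in adult-majority cells. Hbb-bs made 56.6%, 46.1%, 44.0% and 45.1% of the globin UMIs of those cells in WT replicates 1, 2, 4 and 5, and 41.3% and 43.4% in Prokr2Cre libraries 1 and 2. Hbb-bt made 19.0%, 26.1%, 25.5% and 27.0% in the same WT libraries, and 19.8% and 15.1% in the Prokr2Cre libraries. WT replicate 1 had the highest share of Hbb-bs and the lowest of Hbb-bt among WT libraries.

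The balance of that pair differed between the classes in most libraries. Hbb-bs made 74.8%, 63.8%, 63.3% and 62.6% of adult beta UMIs in adult-majority cells of WT replicates 1, 2, 4 and 5, and 78.5%, 53.4%, 35.3% and 45.4% in their embryonic-majority cells. It was lower in embryonic-majority cells of replicates 2, 4 and 5 and higher in replicate 1, where that class had 2 cells. In Prokr2Cre library 1 the values were 67.6% and 52.0%, and in library 2, with 1 cell of each class, 74.2% and 78.1%.

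**Figure D3:**
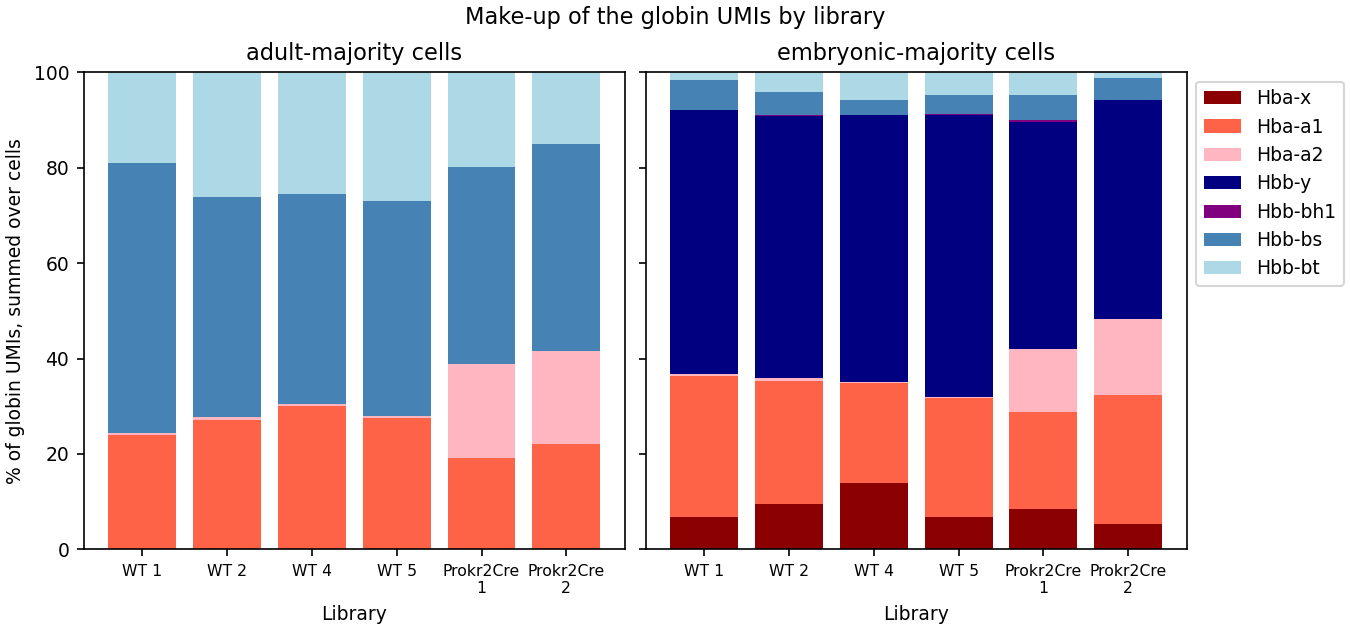
Share of each of the 7 globin genes (stacked bars, percent of globin UMIs summed over cells, y axis) by library (x axis), for adult-majority cells on the left and embryonic-majority cells on the right. Hbb-y makes 45.8% to 59.1% of the bars on the right, and the pale pink Hba-a2 segment is wide in the Prokr2Cre bars and a thin line in the WT bars.

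UMIs of alpha genes were fewer than those of beta genes in both classes. The ratio of alpha to beta UMIs was 0.322, 0.385, 0.439 and 0.389 in adult-majority cells of WT replicates 1, 2, 4 and 5, and 0.582, 0.561, 0.539 and 0.471 in their embryonic-majority cells. It was higher in embryonic-majority cells in 4 of 4 WT libraries, and the 2 sets of values did not overlap. Prokr2Cre library 1 had 0.636 and 0.723, and library 2 had 0.711 and 0.935. Among adult chains alone, in all globin-rich cells, the ratio was 0.324, 0.423, 0.519 and 0.430 in the WT libraries and 0.762 and 0.993 in the Prokr2Cre libraries. It was thus lower in the libraries where Hba-a2 was scarce. Whether the adult alpha copies were counted in full was not tested, so these are ratios of counted UMIs only.

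Other globin genes were nearly absent from globin-rich cells. The theta-type genes Hbq1a and Hbq1b had 52 and 69 UMIs in all 292 cells together. Hbb-bh2 and myoglobin (Mb), the oxygen store of muscle, had 1 UMI each, cytoglobin (Cygb) had 6 and neuroglobin (Ngb) had 0. In other cells Cygb had 3941 UMIs and Mb had 338.

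Markers of red cells were checked in the globin-rich cells before other genes were compared. Of the 7 listed erythroid markers found in the files (among them Alas2, Slc4a1, Hemgn, Slc25a37 and Bpgm), at least 3 were present in 251 of 258 adult-majority cells but in 10 of 34 embryonic-majority cells. At least 1 was present in 258 and 30. Ahsp, the alpha globin chaperone, was not analysed here. A cell with 3 or more markers of another cell type may be a droplet that held more than 1 cell. There were 43 such globin-rich cells, 5 of them embryonic-majority, with a median of 2476 genes against 317 in the rest. Mesenchyme markers reached 3 in 31 adult-majority and 4 embryonic-majority cells, cartilage markers in 12 adult-majority cells and epithelial markers in 3. Macrophage, endothelial, neuron and glia markers did so in 1 adult-majority cell each, endothelial markers also in 1 embryonic-majority cell, and neutrophil and muscle markers in none. No doublet caller was run, and the main comparisons were repeated without the 43 cells.

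Globin-rich cells were next compared with all other cells of the same WT libraries, with the globin genes taken out of the counts, to see which genes accompany globin. Sums of UMIs per library and kind of cell were tested with edgeR (4 libraries, library as a block). The genes for heme synthesis and the red cell membrane were higher nearly throughout. Of 14591 genes tested, 525 passed (3.6%), 429 of them higher (2.94%) and 96 lower (0.658%) in globin-rich cells. Without the 43 cells with markers of another type, 534 genes were higher (3.71% of 14397 tested) and 2081 lower (14.5%), and the median over all genes tested moved to -2.33 on the log2 scale, so the count of lower genes depends on whether those cells are kept. With DESeq2 scaling 422 were higher and 15 lower, and the median over all genes tested moved from -0.39 to -0.16 on the log2 scale. Without WT replicate 5 the count was 318.

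Of 8 genes of heme synthesis, which makes the oxygen-binding group of hemoglobin, 7 were higher and 0 lower. The call of Cpox was lost without WT replicate 2 or 5. Alas2, the rate-limiting enzyme of that pathway in red cells, had 3594 ± 986 CPM of non-globin UMIs (SD, n = 4) in globin-rich and 0.735 ± 0.552 in other cells. Fech, which inserts the iron, had 1196 ± 450 and 21.3 ± 7.05, a log2 fold change of 6.09 ± 0.31 (SE). Uros did not pass (adjusted p = 0.219, edgeR), with 24.0 ± 30.4 and 8.41 ± 1.99 CPM. The median log2 fold change of the list was 3.91 against -0.39 over all genes tested.

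Of 8 iron genes, 4 were higher: Slc25a37 (mitoferrin 1, which carries iron into mitochondria), the ferritin chains Fth1 and Ftl1, and Hmox1, which breaks down heme. Slc25a37 had 2013 ± 452 CPM in globin-rich and 14.8 ± 1.88 in other cells. Tfrc, the transferrin receptor, did not pass (adjusted p = 0.403, edgeR), with 38.6 ± 41.1 and 16.6 ± 2.43. The list's median was 1.50. The Hmox1 call was lost without WT replicate 5.

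Of 16 membrane genes, 15 were higher, with a median log2 fold change of 7.65. Slc4a1, the band 3 anion exchanger, had 859 ± 416 CPM (SD, n = 4) in globin-rich and 0.105 ± 0.127 in other cells. The call of Slc2a1, a glucose transporter, was lost without WT replicate 1, 2 or 5 and without the deep cells, globin-rich cells with as many non-globin UMIs as the median other cell (log2 fold change 1.58, adjusted p = 0.064, edgeR), and that of Add2 without replicate 5. Rhd, which codes for the Rh blood group protein, had 714.5 ± 258 and 1.93 ± 0.544. Aqp1, a water channel, did not pass (adjusted p = 0.546, edgeR), with 1.98 ± 3.95 and 12.3 ± 1.94.

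Of 9 red cell enzyme and chaperone genes 7 passed the filter on low counts, and each of these was higher. A gene scarce in other cells could pass that filter only through the globin-rich sums, so where members were not tested, in this list and the next 2, the counts give no support for the list. Car2 (carbonic anhydrase 2) had 2540.4 ± 784 CPM against 6.48 ± 4.22, and Bpgm, which makes the oxygen-affinity regulator 2,3-bisphosphoglycerate, had 3253 ± 943 against 24.9 ± 2.44. The call of Car1 was lost without WT replicate 1 and without the deep cells (log2 fold change 3.90, adjusted p = 0.0599, edgeR). Of 14 genes of terminal maturation and autophagy, 13 passed the filter and 12 of these were higher. Among them Bnip3l, a mitophagy receptor, had 2405 ± 706 against 137 ± 7.51.

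Of 9 erythroid transcription factors 7 passed that filter, and 5 of these passed the test, all higher. Klf1, which binds CACCC elements of the adult beta promoter, had 41.0 ± 32.3 CPM against 0.350 ± 0.151, and Tal1 had 64.8 ± 42.0 against 0.655 ± 0.0975. None of the 14 globin switching regulators passed in either direction, with a median of -0.57. Bcl11a, a repressor of embryonic and fetal globins, had 35.9 ± 17.4 in globin-rich and 69.6 ± 26.1 in other cells. Without the cells holding markers of another type, 4 of the 14 were lower, with a median of -1.83 against -2.33 over all genes tested, of which 14.5% were lower. Of 6 proliferation genes 1 was higher (Mki67, 190 ± 74.2 against 96.1 ± 44.6), a call lost without WT replicate 5. Of 5 nuclear-retained RNAs 1 was higher (Neat1, 74.3 ± 30.9 against 25.7 ± 11.9), a call lost without WT replicate 1 or 5 and without the deep cells (log2 fold change 1.58, adjusted p = 0.101, edgeR). Without cells of mixed markers 3 of these 5 were lower and the list's median was -2.62, beside the same shift of all genes (median -2.33).

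Other settings ended some calls of this comparison without a change of sign. Without the library block those of Car1, Cpox, Hmox1, Mki67, Neat1 and Slc2a1 were lost. Among cells with at least 500 genes those of Add2, Ank1, Car1, Hmox1, Neat1 and Zfpm1 were lost, and at a globin limit of 50% those of Mki67, Neat1 and Slc2a1. Slc2a1 also lost its call with DESeq2 and with no filter on low counts.

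The genes whose levels followed the summed globins most closely were chosen by Pearson r of log2(CPM + 1) over 10 sums, the globin-rich and other cells of 5 libraries, among 2117 genes. Among the 10 highest were Alas2 (r = 0.998), Gm867, Slc25a37, Mkrn1, March2, Bpgm, Trim10 and Rhd, the last with r = 0.992. Gm867 had 114 to 249 CPM in globin-rich sums and at most 0.116 in other cells. The sums of a library share its depth and suspension, so these r describe a contrast of 2 kinds of cell.

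The 2 classes of globin-rich cell were then compared for all genes other than globins. A library was to enter with at least 10 cells of both classes, which only WT replicate 5 had, so no test was possible in that form. The limit was lowered to 5 cells after the counts were seen, which brought in WT replicates 2, 4 and 5 (n = 3, library as a block). Embryonic-majority cells had lower levels of Slc25a37, Trim10, Gabarapl2 and Cmas, among others, and higher levels of Nudt4. Of 343 genes tested with edgeR, 109 passed (31.8%), 30 of them higher (8.75%) and 79 lower (23%) in embryonic-majority cells. The sums were small, with 52197 non-globin UMIs in all embryonic-majority and 201742 in all adult-majority sums. Few cells supplied most of the embryonic-majority sums of WT replicates 2 and 5. In replicate 5 it was a single cell with 21534 UMIs, 4000 genes and a globin share of 0.296. In replicate 2 they were cells with 9711 and 4811 UMIs and 2109 and 1684 genes. Leaving out the deep cells removed neither of the latter. The count was 64 without WT replicate 5 and 18 without the deep cells. The split between higher and lower moved with the setting. It was 16 higher and 59 lower with DESeq2, 14 and 58 without the library block, 7 and 66 at a globin limit of 10%, 33 and 45 at 50%, 5 and 126 with no filter on low counts, and 48 and 63 without cells of mixed markers.

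The filter on low counts bears on every list here. A gene with few UMIs in embryonic-majority sums could enter the test only through the adult-majority sums, where it had to be higher, so counts over the members tested give no support and the genes are described individually.

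Of 8 heme synthesis genes 4 passed the filter. Alas2 had 935, 915 and 557 CPM of non-globin UMIs in embryonic-majority cells of WT replicates 2, 4 and 5, and 5413, 3756 and 4882 in adult-majority cells. The values did not overlap, and the log2 fold change was -2.48 ± 0.33 (SE). Fech (-2.34 ± 0.45) and Urod (-3.14 ± 0.67) were also lower. Without the deep cells the edgeR adjusted p values of these 3 genes lay between 0.0502 and 0.0853, past the threshold of 0.05, with log2 fold changes from -2.66 to -1.58.

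Of 16 membrane genes 4 passed the filter. Rhd had 3 UMIs in all embryonic-majority sums and 210 in adult-majority sums, a level 18.1-fold lower (95% counting interval 6.11 to 88.5). The calls of Rhd, Slc4a1 (-2.80 ± 0.54) and Epb41 (-1.01 ± 0.39) were lost without the deep cells, where the log2 fold changes were -3.31 (adjusted p = 0.0502, edgeR), -2.06 and -0.46. That of Slc4a1 was also lost at a globin limit of 50%. Epb41 lost its call in 9 of 13 settings, among them without WT replicate 2 or 5, without the library block, with DESeq2 and without cells of mixed markers.

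Of 14 maturation genes 8 passed the filter. Trim10, a RING-finger protein of erythroid cells, had 1 UMI in the embryonic-majority sums and 190 in the others, 49.2-fold lower (95% counting interval 8.72 to 1952). Gabarapl2, an autophagy protein, fell by 2.82 ± 0.44 on the log2 scale. Tent5c did not pass (log2 fold change -0.84, adjusted p = 0.0554, edgeR).

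Of 9 enzyme and chaperone genes 6 passed the filter. Gpx1, a glutathione peroxidase, had a log2 fold change of -3.07 ± 0.31, Car2 of -2.47 ± 0.35, Bpgm of -1.70 ± 0.31 and the peroxiredoxin Prdx2 of -1.56 ± 0.24. These 4 and Blvrb did not pass without the deep cells, with log2 fold changes there of -2.86 for Gpx1, -1.86 for Car2, -1.14 for Bpgm, -1.09 for Prdx2 and -0.66 for Blvrb. Gpx1 and Blvrb also lost the call without the library block and at a globin limit of 50%, and Blvrb without cells of mixed markers. Of 3 tested iron genes, Slc25a37 was lower (-4.58 ± 0.48) and Fth1 higher (0.67 ± 0.20), and the call of Fth1 was lost in 10 of 13 settings. These included leaving out any 1 of the 3 libraries or the library block. It was also lost without cells of mixed markers (log2 fold change 1.00) and without the deep cells (1.29), and the sign turned with no filter on low counts (-0.11). No erythroid transcription factor, switching regulator or proliferation gene of the lists had enough UMIs to be tested.

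Genes outside the lists were named by the size of the change. Ube2c, a ubiquitin-conjugating enzyme, had no UMI in the embryonic-majority cells of any of the 3 libraries and 1463, 2325 and 1207 CPM in adult-majority cells. Against a floor of 3 UMIs over all embryonic-majority sums, the level over the pooled sums was at least 25-fold lower. Mpp1 (a membrane scaffold protein) and Chac2 (an enzyme of glutathione breakdown) also had no UMI there and were at least 10.5-fold and at least 8.71-fold lower. Cmas, which activates sialic acid, and Plaat3, a phospholipase, had 1 UMI each against 172 and 107, a level 44.5-fold (95% counting interval 7.88 to 1768) and 27.7-fold (4.86 to 1104) lower. The calls of Mpp1 and Plaat3 were lost without the deep cells.

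Nudt4, which codes for a hydrolase of inositol pyrophosphates, had the largest rise among the named genes. It had 7853, 13608 and 8561 CPM in embryonic-majority cells of WT replicates 2, 4 and 5, and 555, 1002 and 490 in adult-majority cells. All 3 embryonic-majority values were above all adult-majority values, and the log2 fold change was 4.01 ± 0.30 (SE). Malat1, a long RNA kept in the nucleus, had 24308, 36980.5 and 16525 in embryonic-majority and 12272, 8478 and 5477 in adult-majority cells, a log2 fold change of 1.66 ± 0.23. It was 4.96 without the cells holding markers of another type, and its call was lost without the deep cells (3.26), at a globin limit of 10% and with no filter on low counts. Xist, the only other tested gene of the 5 nuclear-retained RNAs, did not pass and had the opposite sign (log2 fold change -0.55, adjusted p = 0.378, edgeR), with a lower value in embryonic-majority cells of 3 of 3 libraries and means of 499 ± 223 against 836 ± 363 CPM (SD, n = 3). Per cell over all 6 libraries, Malat1 made a median of 2.94% of non-globin UMIs in embryonic-majority and 0.135% in adult-majority cells, and mitochondrial genes made 1.63% and 3.20%.

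The other named genes that were higher were Ppp1r15a (log2 fold change 2.66), a phosphatase subunit of the stress response, Tuba1a (2.22), an alpha-tubulin, Ddx5 (1.64), an RNA helicase, and Fam104a (1.57). Ncl (1.52), the nucleolar protein nucleolin, Srsf3 (1.37), a splicing factor, Rack1 (1.20), a ribosomal scaffold, and Hsp90ab1 (1.16), a chaperone, completed the list. Of these 8, Ddx5, Ncl and Srsf3 lost the call without any 1 of the 3 libraries, Tuba1a without replicate 2 or 4, Rack1 and Hsp90ab1 without replicate 4, and Ppp1r15a without replicate 2. Fam104a kept it in each of these. Without the deep cells Ddx5, Rack1 and Hsp90ab1 lost it, without the library block Rack1, Ncl and Srsf3, and with DESeq2 Ddx5, Ncl and Srsf3. At a globin limit of 10% only Tuba1a and Fam104a kept it, and with no filter on low counts each of the 8 lost it. Of 37 genes of this comparison examined under all settings that gave a value, 10 kept their call in each, among them Nudt4, Trim10, Slc25a37, Gabarapl2, Ube2o, Ube2c, Chac2 and Cmas. Of 13 such settings Ube2o had a value in 7 and Chac2 in 9, and neither had one without the deep cells or without cells of mixed markers. Ube2c and Chac2 had no UMI in embryonic-majority sums, and Trim10 and Cmas had 1 each. They passed the filter only through the adult-majority sums, where they had to be higher. The settings share most of their cells, so a kept call is not independent support.

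**Figure D4:**
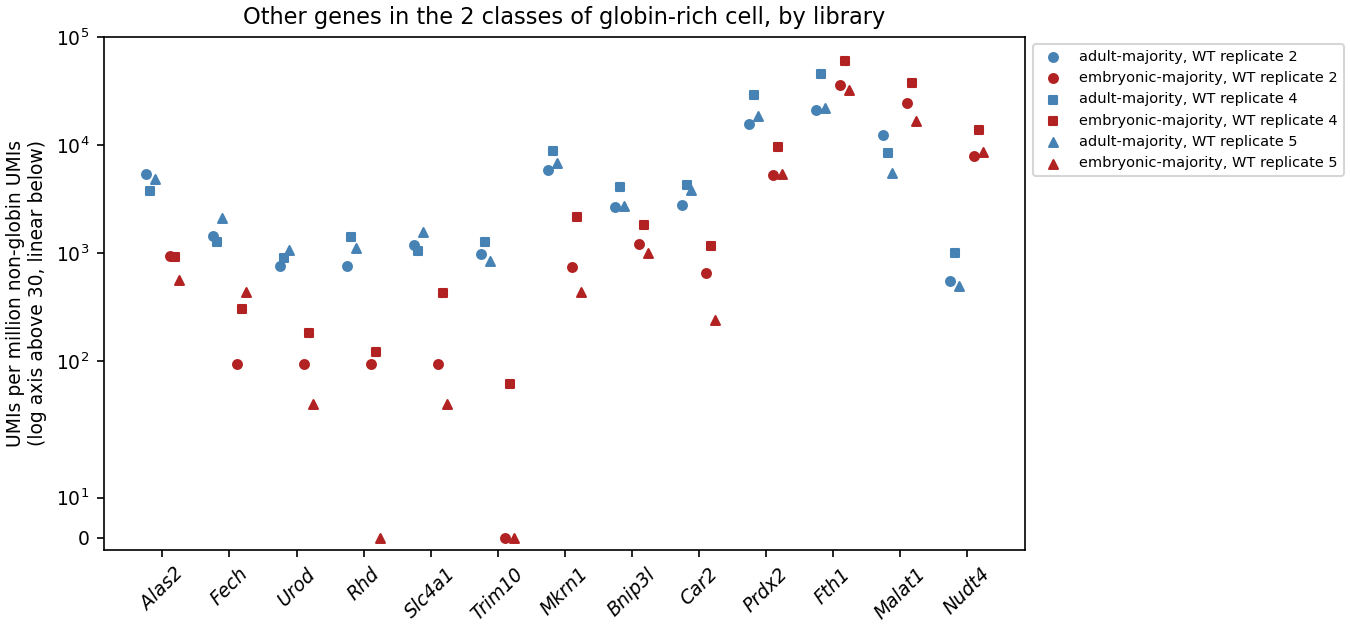
Level of 13 named genes (CPM of non-globin UMIs, y axis, logarithmic above 30 and linear below) in adult-majority (blue) and embryonic-majority (red) cells, with 1 marker shape per WT library. Red points lie below blue points for the genes from Alas2 to Prdx2 within each library, and above them for Fth1, Malat1 and Nudt4.

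Globin UMIs also appeared at low level in cells that were not globin-rich, where they were read as free RNA. They were present in 67.1%, 19.5%, 22.8% and 33.0% of the other cells of WT replicates 1, 2, 4 and 5, and in 64.7% and 4.17% of those of Prokr2Cre libraries 1 and 2. Their level was 189.6, 119.6, 256 and 356 CPM in the WT libraries, a mean of 230.3 ± 101 (SD, n = 4). The mean moved with the limit that defines a globin-rich cell, to 138 CPM at 10% and 849 at 50%. It was 123 in Prokr2Cre library 1 (95% exact Poisson interval 119.7 to 127, for counting error only) and 3.23 (2.43 to 4.22) in library 2, which also had the fewest globin-rich cells.

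A few cells held most of these UMIs in 3 WT libraries. Cells with a globin share of 1% to 20% numbered 13, 10, 7 and 13 in WT replicates 1, 2, 4 and 5 and 0 in both Prokr2Cre libraries. They held 29.5%, 65.0%, 82.4% and 81.8% of the globin UMIs of other cells. Like globin-rich cells they were split: of the 43, 16 had mostly embryonic chains, 26 had under 5% embryonic and 1 lay between. Without them the level fell to 134, 41.9, 45.2 and 64.8 CPM in the WT libraries, a mean of 71.5 ± 42.8 (SD, n = 4), with replicate 1 above the other 3.

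In cells with a globin share under 1%, the number of globin UMIs per cell was compared between kinds of cell. Cells were grouped by holding at least 3 markers of 1 type and fewer of every other. Over WT libraries the mean number of globin UMIs per cell was 0.561 ± 0.436 (SD, n = 4) in mesenchyme-marker cells, 0.655 ± 0.472 in epithelium-marker cells, 0.582 ± 0.429 in neuron-marker cells and 0.534 ± 0.398 in macrophage-marker cells. Endothelium-marker cells had 1.63 ± 1.54, and WT replicate 5 had the highest of their values, 3.72 over 25 cells, against 1.84, 0.467 and 0.478 in replicates 1, 2 and 4. The median of those 25 cells was 0 globin UMIs, and 49.5% of their globin UMIs were embryonic. Cells with no marker group, whose median depth was 957 to 1203 UMIs per WT library, had 0.507 ± 0.390 per cell but 263 ± 177 CPM. By depth quartile in WT replicate 1, the number per cell was 1.06, 1.17, 1.23 and 1.74 from the shallowest to the deepest cells, while their median depth rose from 1374.5 to 16819 UMIs. The number per cell rose by a smaller factor than depth.

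The embryonic share of this RNA was set beside that of the globin-rich cells of the same library. In other cells it was 4.01%, 34.8%, 7.87% and 5.46% in WT replicates 1, 2, 4 and 5, and the difference from globin-rich cells was 3.60, 27.9, -9.89 and -2.59 percentage points. The mean difference of 4.75 ± 16.4 points (SD, n = 4) was within the spread between libraries (p = 0.75, exact sign-flip permutation test, two-sided). It turned to -2.96 without WT replicate 2, whose cells at 1% to 20% were 46.6% embryonic, and to -4.24 among cells with at least 500 genes. In cells under 1% the share was 4.36%, 12.9%, 20.1% and 19.2%, above the globin-rich cells in 4 of 4 libraries by 5.83 ± 3.82 points (SD, n = 4). The exact permutation test then gave the smallest p that 4 libraries allow, which is above 0.05. In Prokr2Cre library 1 it was 12.4% against 13.0%, and in library 2 it was 7.41% of 54 UMIs, with a 95% interval of 2.06 to 17.9.

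**Figure D5:**
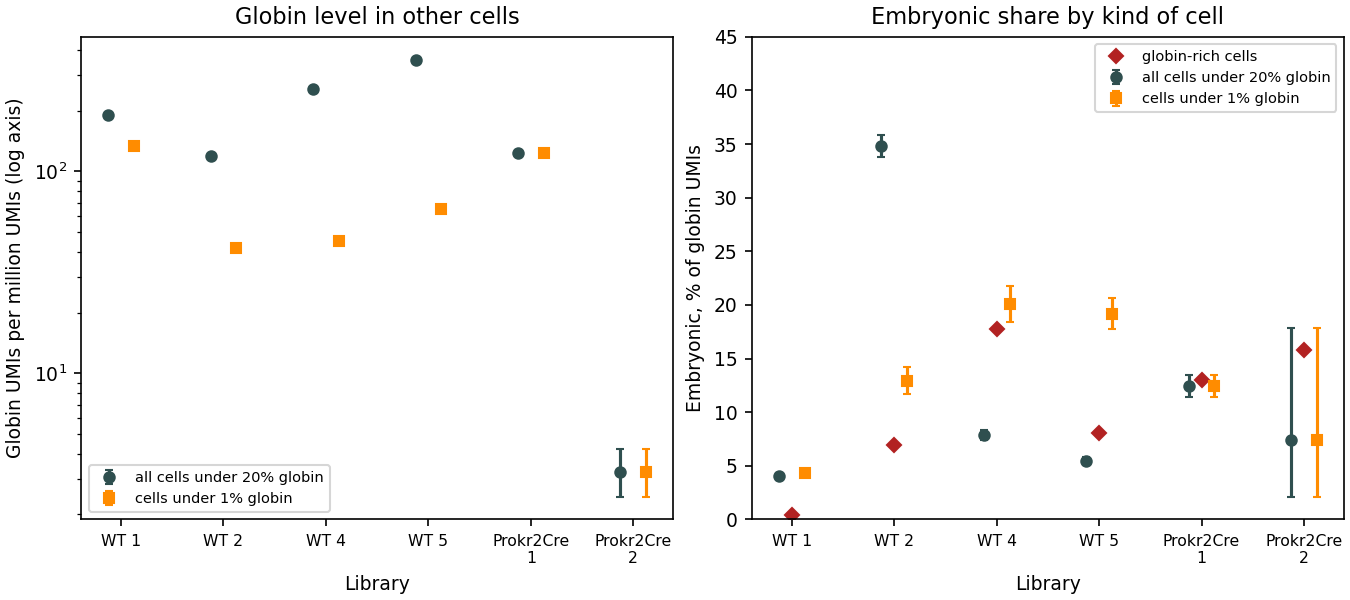
Left, globin CPM (logarithmic y axis) in cells under 20% globin and in cells under 1%, by library, with 95% Poisson intervals. Right, embryonic share of globin UMIs (percent) in the same cells with 95% binomial intervals and in globin-rich cells (diamonds), where WT replicate 2 has 34.8% in all other cells against 12.9% in cells under 1%.

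Embryonic UMIs were also compared between adult-majority cells and other cells of the same library. They made 1.94, 7.67, 22.6 and 19.1 CPM in adult-majority cells of WT replicates 1, 2, 4 and 5, from 3, 2, 4 and 9 UMIs. In cells under 1% globin they made 5.83, 5.42, 9.08 and 12.4, from 512, 368, 444 and 537 UMIs. The 2 sets of values overlapped, but the first rested on few UMIs. CPM are over all UMIs here, which were mostly globin in adult-majority cells only.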

How the data were processed

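The deposited files hold raw UMI counts per gene and barcode with no normalization by the authors. Per the file headers, counting used Cell Ranger 6.0.1 (WT replicate 1), 7.0.0 (other WT replicates) and 6.1.2 (Prokr2Cre). The submitters' processing notes name Cell Ranger 4, Seurat 4.3.0 and mm10. Intron counting is not given in the sources used here. Genes were matched by identifier, and at most 0.894% of a library's UMIs were in genes left out.

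The globin genes, the lists and the rules were chosen with earlier results of these data known. Named genes are the 7 members, other globins, list genes (called ones or, where under 4 were called, those with most UMIs), the 10 genes most like the globins and, between classes, up to 10 called genes each way with the largest change, the same sign in every library and at least 20 UMIs. Some of these genes are not reported here.

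Counts were summed per library and kind of cell and tested with edgeR 4.0.16 in R 4.3.3 (quasi-likelihood, TMM, filterByExpr, library block, Benjamini-Hochberg, 0.05), with DESeq2 1.42.0 as an alternative. The block was kept because both sums of a library come from the same suspension, and their deviations correlated at 0.278 to 0.448 between classes and at 0.100 to 0.450 against other cells. The tests were tried on simulated counts with a fixed dispersion and no library effect, with changes put into the more abundant genes. Only changed genes that passed the filter were counted. Of changes of 2 on the log2 scale, 98.5% were recovered between classes (334 genes) and 38.1% against other cells (15174 genes). Of changes of 1 it was 40.0% and 1.01%. Between classes 4 of 211 unchanged genes were called. The real sums differ in these settings, so the rates do not give the power of the real comparisons. Intervals are 95% Clopper-Pearson or exact Poisson and cover counting error only. Sequences are from RefSeq (GRCm38.p6) and positions from GENCODE (GRCm38).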

Additional observations from a re-analysis of the deposited data

Results flagged for a closer look

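With 35 measures examined over the 4 WT libraries and about 1 in 20 passing by chance, 5 had a library far from the other 3, and these 5 are not independent of each other. The share of Hbb-bs in adult beta UMIs was 74.8% in WT replicate 1, both in all globin-rich and in adult-majority cells, against 62.6% to 63.8% in adult-majority cells of the others. Replicate 1 was counted with Cell Ranger 6.0.1 and the other WT libraries with 7.0.0. Counting software version and library cannot be told apart there. In cells under 20% globin, WT replicate 2 had the highest embryonic share of globin UMIs (34.8%), of alpha UMIs (17.9%) and of beta UMIs (43.5%), and 10 cells held 65.0% of its globin UMIs there.

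Barcodes with under 200 genes were outside the comparisons, and 101 of them passed 20% globin, with 27, 20, 30 and 14 in WT replicates 1, 2, 4 and 5 and 10 in Prokr2Cre library 1. They held a median of 2882 UMIs and 160 genes, and embryonic chains made most of the globin UMIs in 20 of them, against 34 of 292 globin-rich cells with at least 200 genes.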

How the results depend on the processing

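Leaving out each WT library in turn gave embryonic shares of 5.14% to 10.9%, globin-rich shares of 0.601% to 0.910%, adult-majority shares of 80.4% to 87.6%, free levels of 188 to 267 CPM, free minus cell-borne differences of -2.96 to 9.62 points, 64 to 113 genes between classes and 318 to 468 against other cells. With at least 500 genes per cell the embryonic share was 17.1%, globin-rich cells 0.254%, adult-majority cells 75.3%, the free difference -4.24 points and the calls against other cells 248, while the class comparison could not be fitted, nor could it without cells of 20% to 80% embryonic share. The free level was 849 at a globin limit of 50% and 71.5 in cells under 1%. The median share per cell was 0. Without the replicate block, which pairs the sums of a library, 72 genes passed between classes and 267 against other cells. Between classes 18 passed without the deep cells, and with at least 10 cells of both classes 137 passed with no gene minimum and 107 at a limit of 10%. Against other cells 2615 passed without cells of mixed markers. With no filter on low counts Fth1 turned to -0.11. WT replicate 1 and Prokr2Cre library 1 had under 5 embryonic-majority cells and could not enter the class comparison. Small sums limit it: a gene without UMIs in embryonic-majority cells was set at a floor of 3 UMIs over the pooled sums, 57.5 CPM. The causes were not tested.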
